A study of Mus musculus with 8 samples.

Results

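TGF-beta receptors and Smads were followed here as 10 genes of one pathway in mouse blood progenitors: the ligand gene Tgfb1, the receptor genes Tgfbr1 and Tgfbr2, the signal carriers Smad1, Smad2, Smad3, Smad4 and Smad5, and the inhibitors Smad7 and Ski. The members were taken by gene name, as every probe set annotated to one of these genes alone. A probe set is a group of short array probes that is read out as one value. This gave 26 probe sets of the 45101 in the table, for 10 of its 18194 named genes. Of these, 1 (Smad1, 1416081_at) was listed at 0 on all 8 arrays, and the other 25 were among the 24404 probe sets tested. Each probe set was kept apart, since every gene had 2 or 3 of them with measured values.

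RNA came from LSK cells of bone marrow, the marrow fraction without mature lineage markers but with Sca-1 and Kit on its surface, in which blood stem cells and early progenitors lie. The control group was 4 normal mice, labelled WT, and the Msi2 KO group was 4 mice with a conditional knockout of Msi2, the gene of the RNA-binding protein Musashi-2. The Cre driver, the way the deletion was induced and the strain and age of the mice are not given in the sources used here. The comparison asks how the loss of Msi2 alters the RNA of these cells, and Msi2 has been linked to TGF-beta signalling in blood stem cells.

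TGF-beta binds the type II receptor TGFBR2, which then phosphorylates the type I receptor TGFBR1. The active type I receptor phosphorylates SMAD2 and SMAD3, whereas receptors of the related BMP ligands act on SMAD1 and SMAD5, and both pairs enter the nucleus with the shared partner SMAD4. SMAD7 blocks the receptor, SKI represses Smad target genes in the nucleus, and in bone marrow the pathway is known for keeping stem cells quiescent.

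The arrays had medians of 7.03 to 7.07 (log2 signal). The signal of the 4 bright Msi2 probe sets was taken as a share of the control average. On the KO arrays it was 72.6%, 63.4%, 15.1% and 40.5%, in the order of their numbers, so its fall was partial and uneven. This signal is called the Msi2 level or residual Msi2 below. Whether it came from intact Msi2 transcripts was not tested. Msi2 KO 3 was the outlying array: the leading principal component, with 28.6% of the variance, put it at 69.4 and the others at -39.4 to 17.0. Xist and the Y-linked gene Eif2s3y divided the arrays by the sex of the mice. Xist was high on 3 control and 2 KO arrays, and low on the remaining 3, which were control 1 and the KO arrays 1 and 2. Of the LSK gate markers, Kit (8.39 to 9.16 in controls, 8.82 to 9.19 in KO), Cd34, Flt3 and Cd48 were measured, and Ly6a, which encodes Sca-1, was not analysed here. Their summed linear signal was 3769 to 4151 in controls and 2316 to 4295 in KO. The lowest sum was on Msi2 KO 3, where Flt3 read 7.52, against 9.20 to 9.85 on the other KO arrays. Of 9 lineage markers, Cd3e, Cd4, Cd8a, Cd79a and Itgam were listed at 0 on all arrays and the others were not analysed here.

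No probe set of the pathway passed the test over all probe sets. Probe sets farthest below control in KO were those of Tgfbr1, Smad1 and Smad5, and those farthest above it were those of Tgfb1 and Ski. By limma, 0 of 25 member probe sets had an adjusted p under 0.05, as did 0% of all 24404, and the smallest adjusted p was 0.291 among the members and 0.0609 over all. At an unadjusted p under 0.05, 7 of 25 members were lower in KO (28%), against 4.84% of all probe sets, and 2 were higher (8%), against 4.87%. The 7 belonged to Tgfbr1, Smad1, Smad2, Smad4 and Smad5, and the 2 to Tgfb1 and Ski. Probe sets of one gene are not independent, and where each lies on its transcripts was not analysed here. All 4 KO arrays lay below all controls for 3 members (12%; 2.96% of all probe sets) and above them for 1 (4%; 3.12% of all). The members were chosen with earlier results of these data known, and the part of that choice in these shares was not tested. Of the 25 members, 18 had a lower mean in KO (72%), against 49.9% of all probe sets. Their median difference was -0.12, against 0.00 over all probe sets. The count of 9 at an unadjusted p under 0.05 was 8 without Msi2 KO 3 and 5 without control 3. The count of 2 higher members was 0 without control 3, and 1 without control 2, without Msi2 KO 1 or without Msi2 KO 4. Since the RNA was taken from sorted bulk cells, fewer cells of a type and less RNA per cell cannot be told apart.

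**Figure D1:**
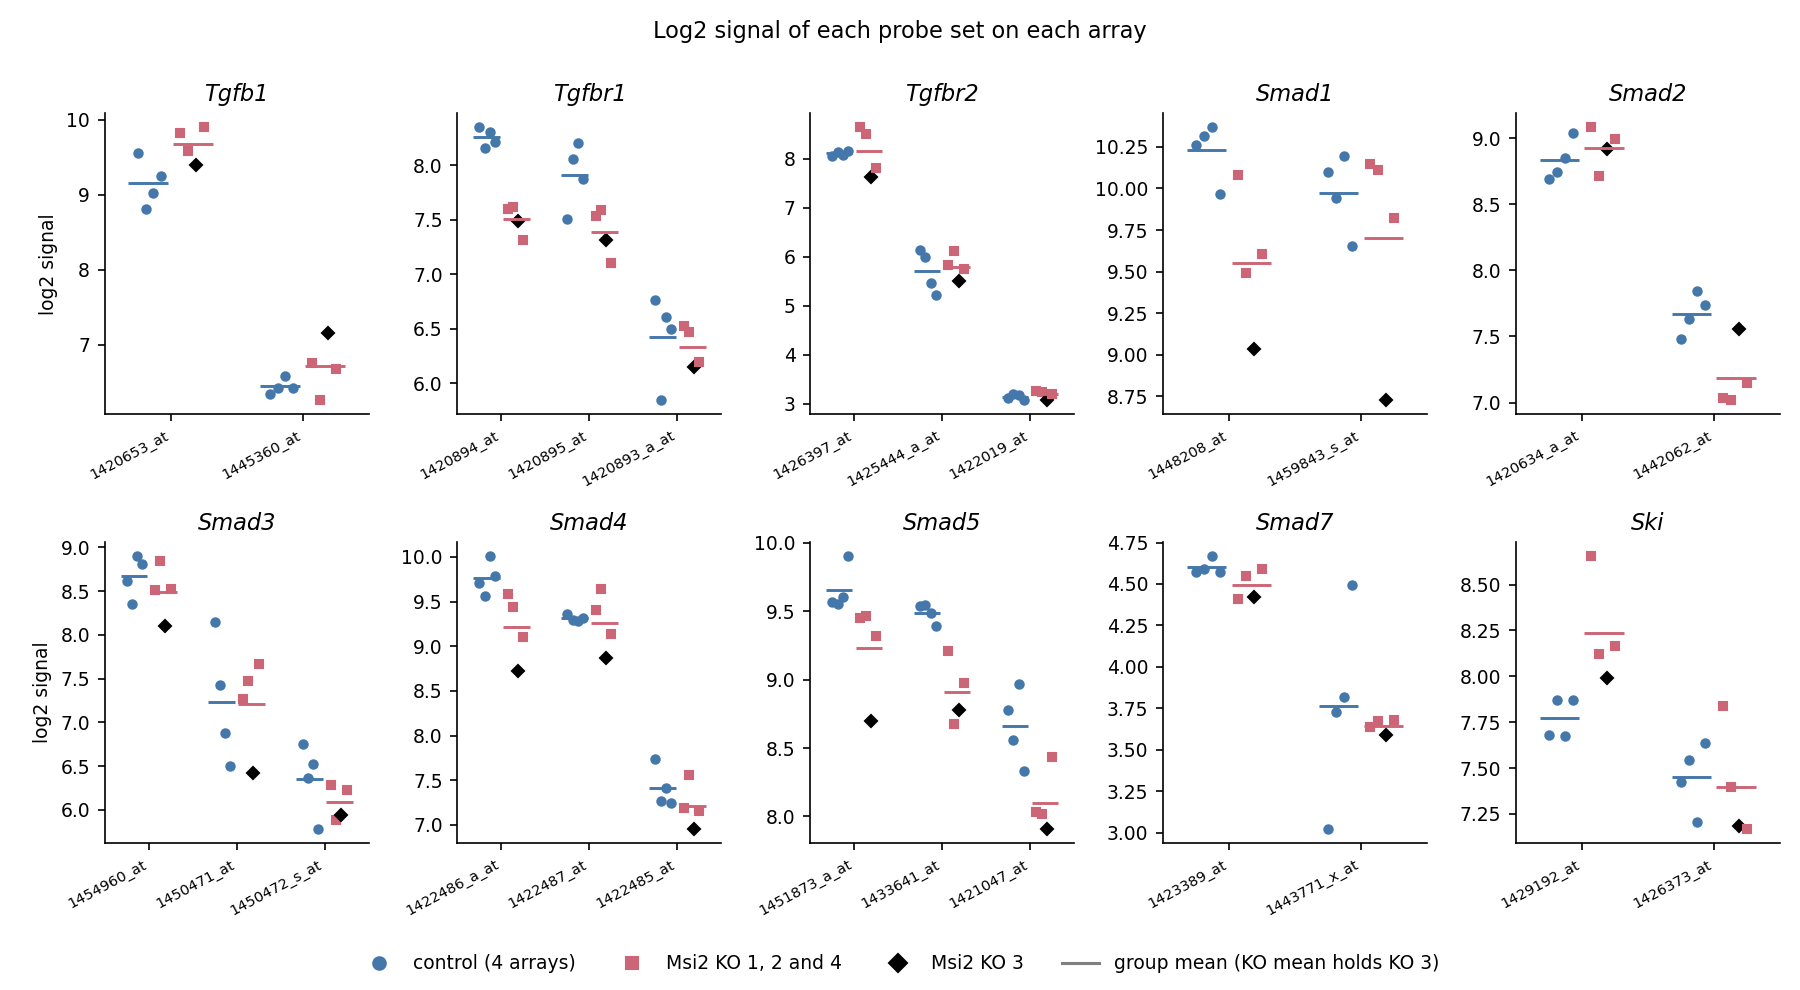
Log2 signal (vertical axis) of each of the 25 measured probe sets (horizontal axis, 1 panel a gene) on every array, with circles for the 4 controls, squares for Msi2 KO 1, 2 and 4, a black diamond for Msi2 KO 3 and lines for the group means. The KO arrays lie below every control for Tgfbr1 1420894_at and for Smad5 1451873_a_at and 1433641_at, and above every control for Ski 1429192_at.

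The DNA before the start sites of Tgfbr1, Smad5 and Ski is shown because these are the genes with a probe set whose groups did not overlap. The stretches are the 250 bases before the most upstream start site of each gene, on the gene's own strand, from RefSeq on GRCm38.p6. Capitals mark the GC box GGGCGG and the CCAAT box CCAAT, read on both strands (CCGCCC and ATTGG).
Tgfbr1, chr4:47352972-47353221, plus strand: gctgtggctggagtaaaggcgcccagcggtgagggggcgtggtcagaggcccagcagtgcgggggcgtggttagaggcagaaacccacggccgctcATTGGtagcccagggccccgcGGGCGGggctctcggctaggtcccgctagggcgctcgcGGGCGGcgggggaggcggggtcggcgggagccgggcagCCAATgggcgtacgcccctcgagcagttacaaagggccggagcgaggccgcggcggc
Smad5, chr13:56702760-56703009, plus strand: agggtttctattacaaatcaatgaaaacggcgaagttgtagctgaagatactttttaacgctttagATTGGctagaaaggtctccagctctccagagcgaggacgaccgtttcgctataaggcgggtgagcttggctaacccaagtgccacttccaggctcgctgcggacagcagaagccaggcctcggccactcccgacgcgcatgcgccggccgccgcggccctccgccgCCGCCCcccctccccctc
Ski, chr4:155222536-155222785, minus strand: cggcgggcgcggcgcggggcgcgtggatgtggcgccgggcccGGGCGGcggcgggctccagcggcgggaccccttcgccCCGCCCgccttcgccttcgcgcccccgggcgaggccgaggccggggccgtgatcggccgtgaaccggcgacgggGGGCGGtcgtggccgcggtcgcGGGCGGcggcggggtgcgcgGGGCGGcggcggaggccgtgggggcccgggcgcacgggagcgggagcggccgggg
The Tgfbr1 stretch held 2 GC boxes and 2 CCAAT boxes at a GC content of 74.8%. The Smad5 stretch held 1 of each at 60.0%, and the Ski stretch held 5 GC boxes and 0 CCAAT boxes at 87.6%. Among 32851 start sites of all genes, 32.7% held a GC box and 33.8% a CCAAT box in a window of this length. The short Smad-binding sequence CAGAC, or GTCTG on the other strand, was in 42.2% of these windows and in none of the 3 printed stretches, and the TATA box TATAAA, or TTTATA, was in 12.4% and in none of the 3. Tgfbr1 has 2 start sites in this source and Smad5 has 3. For each of these genes, 1 start site that is not printed held 1 copy of the Smad-binding sequence. A match or its lack describes these letters alone.

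Tgfb1 encodes TGF-beta 1, the form made by most blood cells. Its brighter probe set, 1420653_at, read 9.56, 8.82, 9.02 and 9.25 on control 1 to control 4 and 9.83, 9.59, 9.39 and 9.90 on Msi2 KO 1 to Msi2 KO 4. Only Msi2 KO 3 fell within the control range, below control 1. The mean went from 9.16 ± 0.32 to 9.68 ± 0.23 (SD, n = 4 each), a log2 difference of 0.52 (95% confidence interval 0.08 to 0.95, limma adjusted p 0.462). The difference was 0.62 among the arrays with high Xist and 0.15 among those with low Xist. The dimmer probe set 1445360_at differed by 0.26 (interval -0.16 to 0.69), and by 0.12 without Msi2 KO 3, where it was highest (7.15). Platelets and megakaryocytes are a rich source of this ligand. Of 8 megakaryocyte and platelet markers 5 were measured, with a summed linear signal of 701 to 2393 in controls and 1902 to 4356 in KO, while Gp1bb and Gp9 were listed at 0. Pf4 (1.02), Ppbp (0.75) and Itgb3 (0.19) had higher means in KO, and Itga2b (-0.14) and Vwf (-0.34) lower ones. The groups overlapped on each of the 5. The part of platelets and megakaryocytes in the Tgfb1 values was not tested.

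Tgfbr1 gave the largest difference of the 10 genes, on 1 of its 3 probe sets. The type I receptor it encodes is the kinase that passes the signal to the Smads. Probe set 1420894_at read 8.35, 8.16, 8.31 and 8.21 in controls and 7.60, 7.62, 7.49 and 7.31 on Msi2 KO 1 to Msi2 KO 4. Every KO array lay below the lowest control, and the spread within each group was small. The means were 8.26 ± 0.09 and 7.51 ± 0.14 (SD, n = 4 each), so KO stood at 59.3% of control, with a log2 difference of -0.75 (95% confidence interval -1.04 to -0.47). The limma adjusted p was 0.291 (0.157 to 0.651 over the alternatives), and an exact permutation test (two-sided) gave p = 0.0286, the lowest value possible with this many arrays. The difference was -0.75 without Msi2 KO 3, and -0.83 and -0.74 among the arrays with high and low Xist. Msi2 KO 3, with the least Msi2 signal, did not have the least Tgfbr1 signal, which was on Msi2 KO 4.

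The other Tgfbr1 probe sets differed less. Probe set 1420895_at read 7.50, 8.06, 8.21 and 7.87 in controls and 7.54, 7.59, 7.31 and 7.10 in KO. Control 1 lay inside the KO range there, and the difference was -0.52 (interval -0.95 to -0.10, limma adjusted p 0.451). It was -0.84 among the arrays with high Xist and 0.06 among those with low Xist, where control 1 is the only control. Probe set 1420893_a_at, whose suffix marks probes that read several transcripts of one gene, went from 6.43 ± 0.41 to 6.34 ± 0.19 (SD, n = 4 each), a difference of -0.09 (interval -0.57 to 0.38). The difference between 1420894_at and 1420893_a_at on the same array was 1.59 to 2.32 in controls and 1.07 to 1.34 in KO, with no overlap. The KO minus control differences of these Tgfbr1 probe sets were thus unequal by -0.66 (two-sided exact permutation p 0.0286, 0.107 after adjustment over 15 pairs). That p follows from the lack of overlap. How often probe sets of other genes part in this way was not tested.

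Tgfbr2, the type II receptor that binds the ligand first, showed no common shift in KO, and its brightest probe set scattered more there than in controls. This probe set, 1426397_at, read 8.05, 8.14, 8.08 and 8.15 in controls and 8.64, 8.51, 7.62 and 7.81 on Msi2 KO 1 to Msi2 KO 4. The controls lay close together, while 2 KO arrays lay above all of them and 2 below. The means were 8.11 ± 0.05 and 8.15 ± 0.50 (SD, n = 4 each), a difference of 0.04 (interval -0.48 to 0.56). The 2 KO arrays above were those with low Xist and the 2 below were those with high Xist, with differences of 0.52 and -0.40 within these sets. Low Xist also went with more residual Msi2 in KO (72.6% and 63.4%, against 15.1% and 40.5%), and sex and residual Msi2 cannot be told apart on these arrays. A limma term for the difference between both sets, added after the data were seen, gave -0.93 with an adjusted p of 0.517. KO arrays outside their controls on opposite sides in both sets were found for 4 of 25 members (16%) and for 8.13% of all probe sets. As a guide to background, Eif2s3y read 3.36 to 3.62 on the arrays with high Xist, and Xist read 4.79 to 5.55 on those with low Xist. Probe set 1425444_a_at, which reached down into this range, differed by 0.10 (5.22 to 6.13 in controls, 5.49 to 6.12 in KO), with the wider scatter in controls. Probe set 1422019_at lay at 3.07 to 3.26 on all arrays, below both guides.

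**Figure D2:**
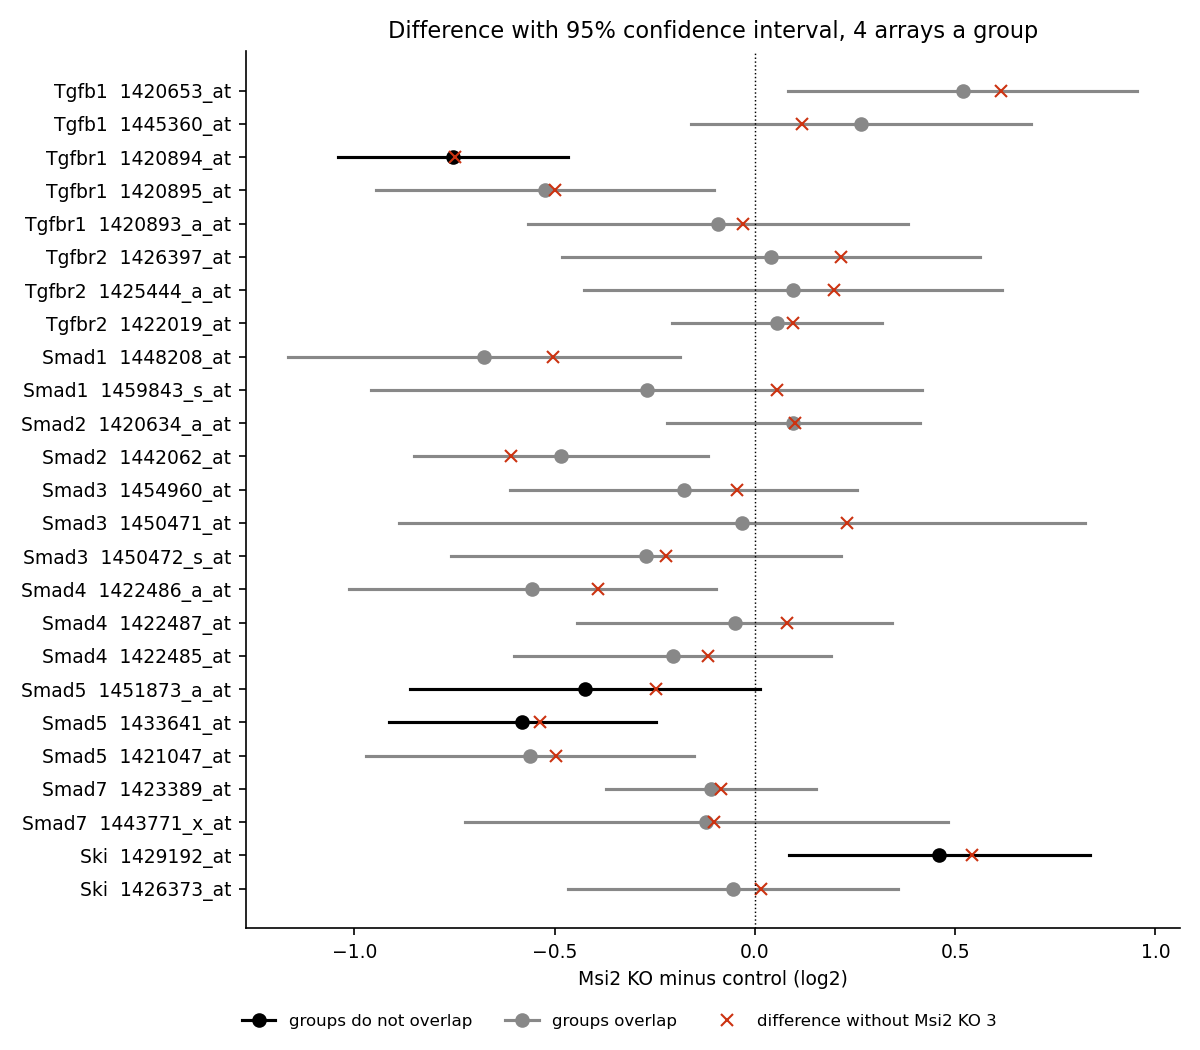
Log2 difference Msi2 KO minus control (horizontal axis) of each probe set, grouped by gene, with its 95% confidence interval from limma. Black marks the 4 probe sets whose groups did not overlap, grey the others, and a cross the difference without Msi2 KO 3. The interval excludes 0 for 9 of 25 probe sets, 7 below and 2 above.

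Smad1 and Smad5 carry the signal of BMP receptors, and their 5 measured probe sets all had lower means in KO. So did 49.9% of all probe sets, and Smad1 1459843_s_at was lower only with Msi2 KO 3 included. Smad5 probe set 1433641_at read 9.54, 9.55, 9.48 and 9.39 in controls and 9.21, 8.67, 8.78 and 8.98 on Msi2 KO 1 to Msi2 KO 4. All KO arrays lay below all controls. The means were 9.49 ± 0.07 and 8.91 ± 0.24 (SD, n = 4 each), with KO at 66.9% of control, a log2 difference of -0.58 (interval -0.91 to -0.25), a limma adjusted p of 0.354 and a two-sided exact permutation p of 0.0286. The difference was -0.60 within the arrays of high Xist and of low Xist alike.

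The other Smad5 probe sets lay on the same side. Probe set 1421047_at read 8.78, 8.56, 8.97 and 8.33 in controls and 8.03, 8.02, 7.91 and 8.43 in KO. Msi2 KO 4 overlapped with control 4 there, and the difference was -0.56 (interval -0.97 to -0.15, limma adjusted p 0.420). Probe set 1451873_a_at read 9.57, 9.55, 9.60 and 9.91 in controls and 9.45, 9.46, 8.70 and 9.32 in KO. Its groups did not overlap, and its difference of -0.42 was -0.25 without Msi2 KO 3, the lowest array, and -0.68 and -0.11 among the arrays with high and low Xist. The Smad5 probe sets differed from each other in this contrast by 0.16 and 0.14 (two-sided exact permutation p 0.486 and 0.686).

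Smad1 probe set 1448208_at read 10.26, 10.31, 10.37 and 9.97 in controls and 10.08, 9.49, 9.04 and 9.60 on Msi2 KO 1 to Msi2 KO 4. Msi2 KO 1 lay above control 4, and the other KO arrays lay below all controls. The means were 10.23 ± 0.18 and 9.55 ± 0.43 (SD, n = 4 each), a log2 difference of -0.68 (interval -1.16 to -0.19, limma adjusted p 0.416) that was -0.50 without Msi2 KO 3. Probe set 1459843_s_at, whose suffix marks probes shared between transcripts, read 9.65 to 10.19 in controls, 10.15 and 10.11 on Msi2 KO 1 and Msi2 KO 2, 9.82 on Msi2 KO 4 and 8.73 on Msi2 KO 3. Its difference of -0.27 rested on Msi2 KO 3 and was 0.05 without it.

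Smad2 and Smad3, which carry the TGF-beta signal itself, gave no even picture. Smad2 probe set 1420634_a_at read 8.69 to 9.04 in controls and 8.72 to 9.09 in KO, a difference of 0.10 (interval -0.22 to 0.41). Smad2 probe set 1442062_at read 7.48, 7.63, 7.85 and 7.74 in controls and 7.03, 7.02, 7.56 and 7.15 on Msi2 KO 1 to Msi2 KO 4. All KO arrays but Msi2 KO 3 lay below the controls, and the difference was -0.48 (interval -0.85 to -0.12, limma adjusted p 0.433), or -0.61 without Msi2 KO 3. The difference between both Smad2 probe sets was 1.01 to 1.30 in controls and 1.36 to 2.05 in KO, which makes their KO minus control differences unequal by 0.58 (two-sided exact permutation p 0.0286, 0.107 adjusted over 15 pairs). Smad3 probe sets differed by -0.18 (1454960_at), -0.03 (1450471_at) and -0.27 (1450472_s_at), each with an interval that included 0. Smad3 1450471_at had the widest scatter of all members in controls, at 6.50 to 8.15 in controls and 6.42 to 7.67 in KO, and its 95% confidence interval ran from -0.89 to 0.82.

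Smad4 is the partner that both pairs of Smads share. Its probe set 1422486_a_at read 9.70, 9.56, 10.01 and 9.79 in controls and 9.58, 9.43, 8.72 and 9.11 on Msi2 KO 1 to Msi2 KO 4. Msi2 KO 1 lay above control 2 and the other KO arrays below every control. The difference of -0.56 (interval -1.01 to -0.10, limma adjusted p 0.454) was -0.39 without Msi2 KO 3, and -0.87 and -0.19 among the arrays with high and low Xist. Probe set 1422487_at read 9.28 to 9.37 in controls and 9.41, 9.64, 8.87 and 9.13 on Msi2 KO 1 to Msi2 KO 4. As for Tgfbr2, both KO arrays with low Xist lay above all controls and both with high Xist below, and the mean difference was -0.05. The differences of 1422486_a_at and 1422487_at were unequal by -0.50 (0.27 to 0.73 apart in controls, -0.21 to 0.17 in KO, two-sided exact permutation p 0.0286, 0.107 adjusted over 15 pairs). The third, 1422485_at, differed by -0.20 (interval -0.60 to 0.19).

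**Figure D3:**
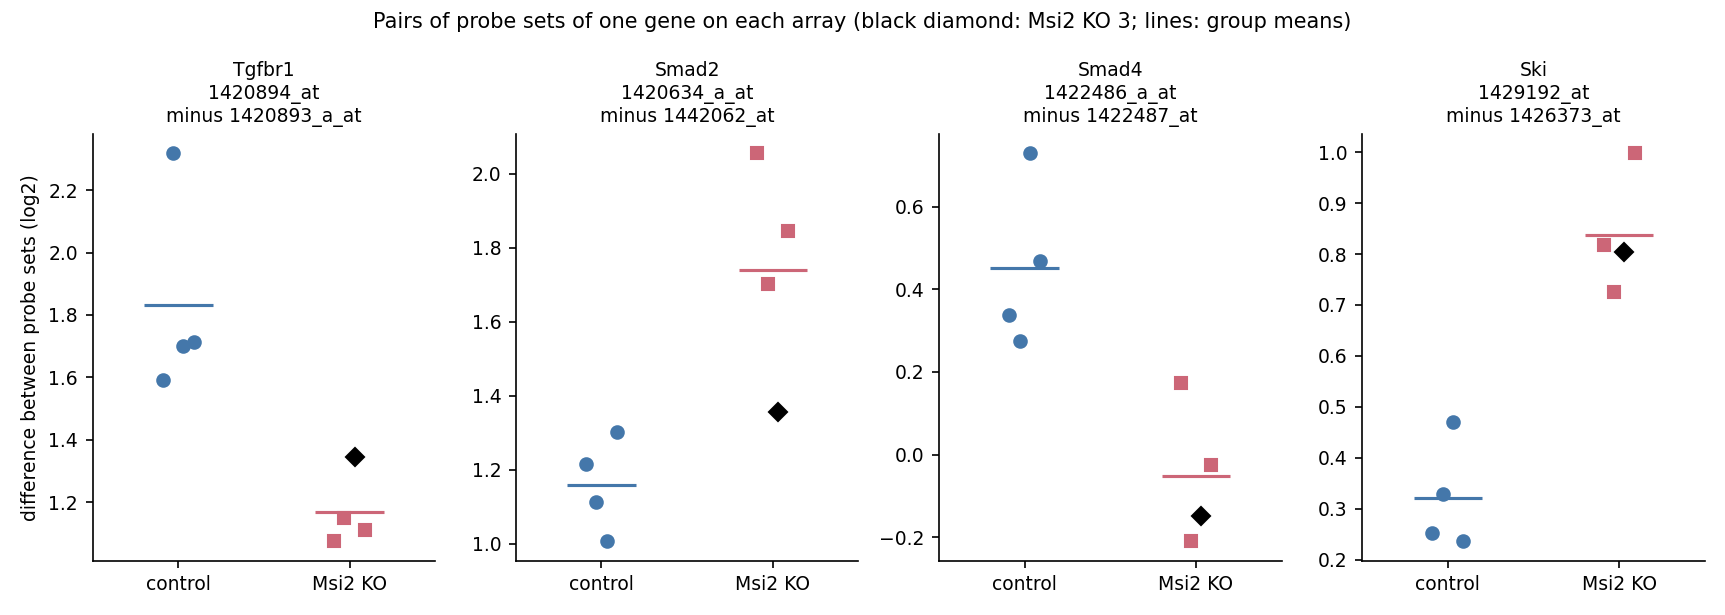
Log2 signal of one probe set minus that of another of the same gene on each array (vertical axis), in control and Msi2 KO, for the 4 of 15 pairs whose groups did not overlap; lines are group means and the black diamond is Msi2 KO 3. The distance narrows in KO for Tgfbr1 and Smad4 and widens for Smad2 and Ski. The share of such pairs over all genes was not worked out, so the count is not a trait shown for these genes.

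Of the inhibitors, Ski was higher in KO on 1 of 2 probe sets and Smad7 read near background. Ski 1429192_at read 7.68, 7.87, 7.67 and 7.87 in controls and 8.66, 8.12, 7.99 and 8.16 on Msi2 KO 1 to Msi2 KO 4. All KO arrays lay above all controls, by the most on Msi2 KO 1. The difference was 0.27 among the arrays with high Xist (unadjusted limma p 0.145) and 0.71 among those with low Xist (0.116). The means were 7.77 ± 0.11 and 8.23 ± 0.29 (SD, n = 4 each), a 1.38-fold difference (log2 0.46, interval 0.08 to 0.84, limma adjusted p 0.451, two-sided exact permutation p 0.0286). Ski 1426373_at read 7.20 to 7.64 in controls and 7.17 to 7.84 in KO, a difference of -0.05. The differences of both Ski probe sets were unequal by 0.51, with a distance of 0.24 to 0.47 in controls and 0.73 to 1.00 in KO (two-sided exact permutation p 0.0286, 0.107 adjusted over 15 pairs). Smad7, itself a target of the pathway, read 4.41 to 4.67 on 1423389_at and 3.02 to 4.50 on 1443771_x_at over all arrays. The first lay between both guides to background and the second around the lower one, so neither was shown to lie above background, and their differences (-0.11 and -0.12) are given as values only.

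Set against the Msi2 level of each array, the KO values were ordered in different ways. In KO, Smad1 1448208_at was highest on Msi2 KO 1, with the most Msi2 signal, and lowest on Msi2 KO 3, with the least. Tgfbr1 1420894_at was 7.60 and 7.62 on the arrays with the most residual Msi2 and 7.49 and 7.31 on those with the least. Smad5 1433641_at was lowest on Msi2 KO 2 (8.67), with 63.4% of Msi2. Ski 1429192_at lay farthest from the controls on Msi2 KO 1, with 72.6% of Msi2. With 4 KO arrays these orders were not tested.

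**Figure D4:**
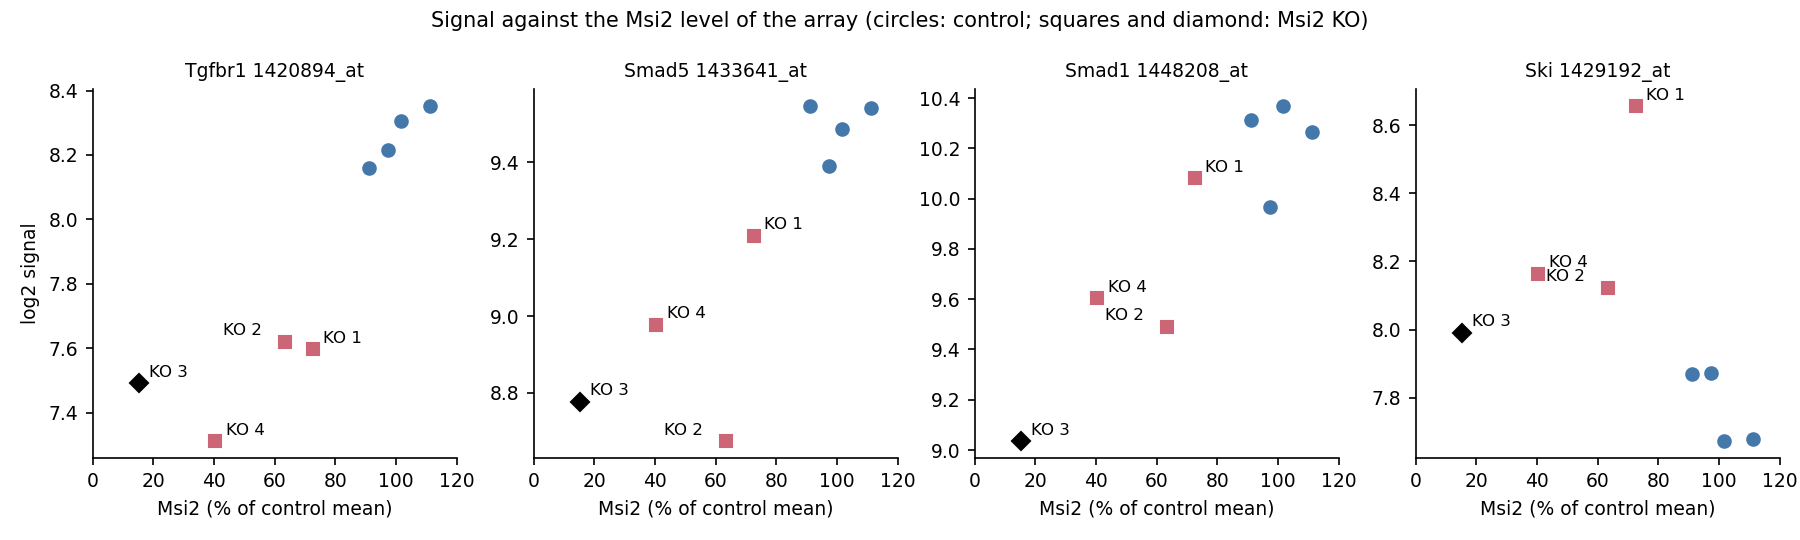
Log2 signal (vertical axis) of 4 probe sets against the Msi2 level of the array as a percentage of the control mean (horizontal axis), with circles for controls, squares for KO and a black diamond for Msi2 KO 3. Msi2 in KO runs from 15.1% to 72.6%, and the Tgfbr1 values there stay within 7.31 to 7.62.

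The wider pathway was read from 6 lists of other genes, of which 53 of 85 genes had a measured probe set. No probe set of these lists passed limma (0 of 118, smallest adjusted p 0.357). At an unadjusted p under 0.05, 4 of the 118 were lower in KO and 3 higher, which is 3.39% and 2.54% against 4.84% and 4.87% of all probe sets. By mean, 71 of the 118 were lower in KO and 47 higher, where 49.9% of all probe sets were lower. The median difference was -0.06. All 11 BMP and activin ligands and their traps were listed at 0 on every array, among them Bmp2, Bmp4, Inhba and Nog. Of 13 genes of TGF-beta ligand supply, 7 were measured by 11 probe sets, 6 lower and 5 higher (median -0.01), and Tgfb2 and Tgfb3 had no measured probe set. The smallest p in this list belonged to the integrin gene Itgav (-0.40 ± 0.24 on 1421198_at, log2 difference with SE), the protease gene Furin (0.33 ± 0.21) and Nrros, a holder of latent TGF-beta on blood cells (-0.16 ± 0.14). The other Itgav probe sets differed by -0.19, 0.10 and -0.01.

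Among the other receptors, 8 of 13 genes gave 13 probe sets, 8 lower and 5 higher, with a median of -0.10. Acvr1b, an activin type I receptor, went from 8.48 ± 0.20 to 7.82 ± 0.60 (SD, n = 4 each). The co-receptors Tgfbr3 (0.51 ± 0.22 on 1433795_at and 0.35 on 1425620_at, log2 difference, the first with SE) and Eng (0.48 ± 0.23 on 1417271_a_at, but -0.25 on 1432176_a_at) each had a probe set that read higher, and the groups overlapped on all of these probe sets. Of the other Smads and Smad regulators, 22 of 25 genes gave 57 probe sets, 32 lower and 25 higher (median -0.04), and Smad6 and Smad9 had no measured probe set. Trim33, a ubiquitin ligase that acts on Smad4, on 1426954_at read 7.52 to 7.93 in controls and 7.96 to 8.44 in KO (difference 0.47, limma adjusted p 0.439), and its other probe sets differed by 0.17 and 0.07. The type I receptor binding protein gene Fkbp1a differed by -0.30 on 1456196_x_at and -0.37 on 1448184_at. In the non-Smad branch all 6 genes were measured, by 20 probe sets, 15 lower and 5 higher (median -0.06), led by the kinase genes Map2k6 (-0.34) and Map3k7 (-0.46 on 1455441_at) and by Traf6 (-0.28 on 1435350_at). Other probe sets of these genes ran from -0.10 to 0.32 (Map3k7) and from -0.37 to 0.28 (Traf6).

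Of 17 target genes of TGF-beta and BMP, 10 were measured by 17 probe sets, 10 lower and 7 higher, with a median of -0.10. At an unadjusted p under 0.05, 3 were lower (17.6%, against 4.84% of all probe sets), 2 of them of Tgfbi, and 1 was higher (5.88%, against 4.87%). This list, too, was chosen with earlier results of these data known. Cdkn1a, the cell cycle inhibitor p21, on 1424638_at read 7.92 to 8.60 in controls and 7.28 to 7.79 in KO, with no overlap (difference -0.71, limma adjusted p 0.357), and differed by -0.37 on 1421679_a_at. Tgfbi, a matrix protein gene named for its induction by TGF-beta, differed by -0.69 ± 0.25 on 1415871_at and -0.89 ± 0.34 on 1456250_x_at (log2 difference with SE), and its groups overlapped on both. Id1, Id3 and Cdkn2b had no measured probe set.

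**Figure D5:**
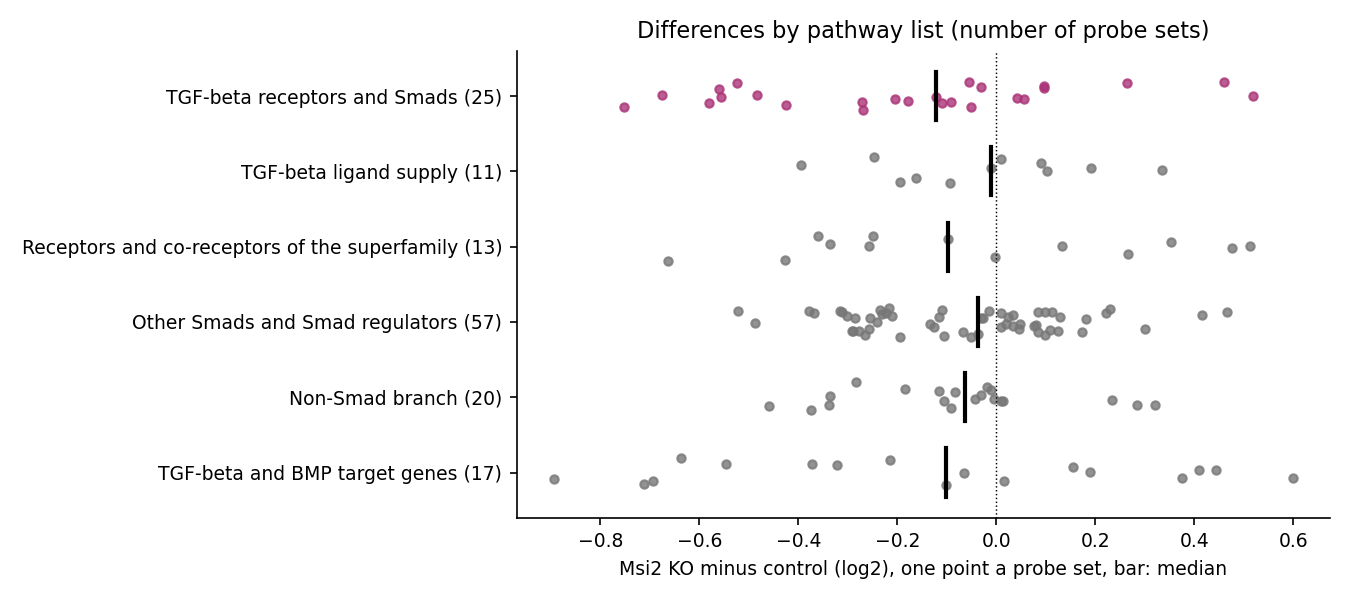
Log2 difference Msi2 KO minus control (horizontal axis) of each probe set of the pathway, with the receptors and Smads above and 5 lists of other pathway genes below (vertical axis, number of probe sets in brackets); bars are medians. The medians lie between -0.12 and -0.01, and each list has probe sets on both sides of 0.

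Genes listed as markers of other cell types were read on the same arrays, and whether their signal came from such cells was not tested. The stromal and endothelial markers (5 of 10 measured, with Kdr, Col1a1, Col3a1, Cxcl12 and Lepr listed at 0) had a summed linear signal of 686 to 901 in controls and 339 to 636 in KO, with no overlap. Tek, Tie1, Pecam1 and Pdgfrb had lower means in KO and Cdh5, near background, a higher one. The erythroid markers (6 of 9 measured, Hba-a1 listed at 0) summed to 1713 to 4419 in controls and 3305 to 11609 in KO. The highest sum was on Msi2 KO 3, the outlying array, where Car1 read 12.38 and Klf1 10.85. All 6 had higher means in KO. Only Blvrb had all KO arrays above all controls (6.80 to 7.79 in controls, 8.58 to 9.80 in KO, difference 1.72). The mast cell and basophil markers (4 of 5) summed to 125 to 265 in controls and 243 to 585 in KO. Fcer1a, Cpa3 and Ms4a2 had higher means in KO, and Mcpt8 a lower one (-0.50). All KO arrays lay above all controls for Fcer1a and Cpa3. Fcer1a read 3.59 to 5.05 in controls and 6.46 to 7.83 in KO, and Cpa3 differed by 1.87. The groups overlapped for Ms4a2 and Mcpt8. The macrophage and monocyte markers (6 of 8, C1qa and Cd14 listed at 0) summed to 1753 to 2671 in controls and 1470 to 3115 in KO, a sum led by Lyz2, which differed by -0.79 with all KO arrays below all controls. The other 5 had higher means in KO, by 2.36 (C1qb), 1.24 (Vcam1), 1.09 (Cd68, all KO arrays above), 0.60 (Csf1r) and 0.41 (Adgre1). The part of these cells in the differences of Tgfbr1, the Smads and Ski was not tested.

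The 5 genes whose profile over the 8 arrays was most like that of Tgfbr1 1420894_at, by Pearson's r, were Fscn1 (0.966), Igtp (0.958), Gpr65 (0.956), Cep68 (0.950) and Twsg1 (0.949). Fscn1 encodes an actin-bundling protein, Igtp an interferon-induced GTPase, Gpr65 a proton-sensing receptor, Cep68 a centrosome protein and Twsg1 a secreted protein that binds BMPs. These values describe likeness over 8 arrays that share the same split into groups, and a probe set that differs between the groups scores high for that reason. Twsg1 went from 9.09 ± 0.09 to 8.41 ± 0.22 (SD, n = 4 each), with all KO arrays below all controls. Fscn1 read 4.85 to 4.91 in controls and 3.19 to 3.99 in KO. Neither level was above the higher guide to background (4.79 to 5.55), so Fscn1 was not shown to lie above background.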

How the data were processed

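The authors deposited 1 normalized log2 signal for each probe set and array. RMA is named in the submitters' processing notes, and its version and any genome build are not given in the sources used here. Of 45101 probe sets, 20664 (45.8%) hold 0 on every array, and no other holds a 0. Since RMA does not produce zeros, a further step, not given in the sources used here, must have made them. They were left out, with 33 control probe sets. Names came from the array's annotation, updated by gene ID through RefSeq (GRCm38.p6, names only). Promoters of 7 of 10 members were used, and those of Smad2, Smad4 and Smad7 were not. This step left out member promoters on a preset chromosome, while the shares over all start sites did not.

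The 24404 remaining probe sets were fitted with limma 3.58.1 in R 4.3.3 (lmFit, eBayes, two-sided, Benjamini-Hochberg, threshold 0.05). Every adjusted p is from this fit unless another test is named, and intervals cover 95%. Single values and pairs of probe sets were tested by exact permutation over 70 assignments. The number of arrays limits the precision. Members and lists were chosen with earlier results of these data known. Named were all members, the 3 smallest p per list and the 5 genes most like Tgfbr1. In a simulated comparison of Msi2 KO with control on 24404 probe sets, 77 of 200 changed by 1 (log2) were recovered, and 177 of 200 changed by 2, with 2 and 16 false calls. Its noise was independent and normal, with the same SD in both groups, no outlying array and no split by sex. Recovery on the real arrays can therefore differ.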

Additional observations from a re-analysis of the deposited data

Results flagged for a closer look

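In 2 of 50 groups of 4 arrays, 1 array lay far from the other 3; chance alone gives about 1 in 20. Control 4 read 9.91 for Smad5 1451873_a_at, where the other controls lay between 9.55 and 9.60. Control 3 read 4.67 for Smad7 1423389_at, where the others lay between 4.57 and 4.59.

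For 4 of 25 probe sets (16%, against 8.13% of all 24404) all KO arrays with high Xist lay on one side of their controls, and all KO arrays with low Xist on the other side of control 1, the only control of that set. The Smad7 probe set among them was not shown to lie above background. The difference in high-Xist arrays minus that in low-Xist arrays was -0.90 for Tgfbr1 1420895_at, -0.93 for Tgfbr2 1426397_at, -0.46 for Smad4 1422487_at and -1.01 for Smad7 1443771_x_at. None passed the limma interaction term, with adjusted p of 0.524, 0.517, 0.688 and 0.574 in that order. Over all 24404 probe sets 0 passed it (smallest adjusted p 0.352).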

How the results depend on the processing

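No member probe set passed limma's adjusted threshold under any alternative. Tgfbr1 1420894_at (-0.83 to -0.69), Smad5 1433641_at (-0.68 to -0.50) and Ski 1429192_at (0.27 to 0.71) kept their direction under all of them. Over all probe sets, 1 passed with repeated quantile normalization, with probe sets below the median level left out, with probe sets at 0 kept and with array weights, 2 passed with an intensity trend and robust prior, and 0 to 1 when 1 array was left out. The count of 9 members at an unadjusted p under 0.05 was 5 to 11 with 1 array left out (5 to 8 lower, 0 to 3 higher). It was 1 in the low-Xist arrays (1 lower, 0 higher), and 1 was higher in the high-Xist arrays. The sign turned for some probe sets. With array weights these were Tgfbr1 1420893_a_at (0.012), Tgfbr2 1426397_at (-0.013) and Smad3 1450471_at (0.20). With Xist as covariate they were Tgfbr2 1426397_at (-0.086) and 1425444_a_at (-0.033). In high-Xist arrays they were Tgfbr2 1426397_at (-0.40) and 1422019_at (-0.0102) and Smad3 1450471_at (0.11). In low-Xist arrays they were Tgfbr1 1420895_at (0.062), Tgfbr2 1425444_a_at (-0.16), Smad1 1459843_s_at (0.029), Smad3 1454960_at (0.0598), Smad4 1422487_at (0.16), Smad7 1443771_x_at (0.64) and Ski 1426373_at (0.19). With 1 array left out, the ranges that crossed 0 were those of Tgfbr1 1420893_a_at (-0.29 to 0.019), Tgfbr2 1426397_at (-0.12 to 0.22) and 1425444_a_at (-0.065 to 0.24), Smad1 1459843_s_at (-0.42 to 0.055), Smad3 1450471_at (-0.28 to 0.27), Smad4 1422487_at (-0.18 to 0.081), Smad7 1443771_x_at (-0.37 to 0.12) and Ski 1426373_at (-0.20 to 0.022). With medians in place of means the unequal change turned for Tgfbr2 1422019_at (0.00054) and Smad7 1443771_x_at (-0.0022). The causes were not tested. The replicate numbers are not stated to pair the mice. Deviations of same-numbered arrays correlated at 0.13, -0.12, 0.08 and -0.04, and 3 of 8 arrays were closest to their own number. Whether the mice were paired cannot be told from these values. With the replicate block 8 members were at an unadjusted p under 0.05, and of the pairs of probe sets 2 were, against 4 without it (limma). The share of such pairs over all genes was not worked out.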
